A study of Homo sapiens with 12 samples.

Results

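The genes followed here are 9 lineage transcription factors of the mammary epithelium: FOXA1, GATA3, ESR1, ELF5, FOXC1, TP63, TFAP2A, TFAP2C and EHF. They were chosen by name as genes known for luminal or basal identity, with earlier results of these data known, and they are 9 of the 60675 genes in each count table. RNA was sequenced from MDA-MB-468 and HCC1187, both established triple-negative breast cancer lines that the labels describe as basal-like. In each line, cells transfected for 48 h with an shRNA against the long non-coding RNA SOX9-AS1 (knockdown) were compared with cells given an shRNA against LacZ (control), and no other allele or agent is named. Each of the 4 groups has 3 libraries, called S1 to S3 for MDA-MB-468 controls, S4 to S6 for its knockdown, S7 to S9 for HCC1187 controls and S10 to S12 for its knockdown. Nothing in the labels ties a library to a culture of its own, so p-values measure only the spread between these libraries. In bulk RNA, fewer cells of a kind and less RNA per cell cannot be told apart.

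FOXA1 is a pioneer factor that opens chromatin for the estrogen receptor ESR1, and GATA3 is required for luminal differentiation. ELF5 and its neighbour EHF are ETS factors of epithelia, ELF5 being known for alveolar luminal progenitors. TP63 specifies basal cells, FOXC1 is a forkhead factor used as a marker of basal-like tumours, and TFAP2A and TFAP2C are AP-2 factors, of which TFAP2C is known to act with the estrogen receptor. In GENCODE v29 (GRCh38) all 9 are protein-coding genes. The luminal factors are FOXA1 at chr14:37589984-37596059 (minus strand), GATA3 at chr10:8045378-8075203 (plus strand) and ESR1 at chr6:151656691-152129619 (plus strand). The ETS genes are ELF5 at chr11:34478793-34513805 (minus strand) and EHF at chr11:34621093-34661057 (plus strand). The basal factors are FOXC1 at chr6:1609972-1613897 (plus strand) and TP63 at chr3:189631416-189897279 (plus strand), and the AP-2 genes are TFAP2A at chr6:10393186-10419659 (minus strand) and TFAP2C at chr20:56629302-56639283 (plus strand).

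Library totals ran from 6026376 to 10160040 counts. The targeted SOX9-AS1 was low throughout, at 1.40 to 2.32 CPM (counts scaled to a common library size as given under the processing) in HCC1187 controls and 0.697 to 1.16 CPM in its knockdown. It fell there by 1.08 on the log2 scale (SE 0.363, adjusted p = 0.0349). The MDA-MB-468 controls had 6.04 to 7.28 CPM and its knockdown 5.03 to 5.57 CPM, and the log2 change of -0.30 missed the threshold (SE 0.201, adjusted p = 0.417), as it did without S4 (-0.32, adjusted p = 0.274). SOX9, the transcription factor gene on the opposite strand within SOX9-AS1, fell by 0.49 in HCC1187 (adjusted p = 0.0256) and had -0.68 in MDA-MB-468 (adjusted p = 0.205; -0.82 and 2.03e-05 without S4). S4 stands apart from the other knockdown libraries of its line. Its log2 CPM correlated across genes at 0.991, 0.992 and 0.995 with the controls S1 to S3 but at 0.977 and 0.974 with S5 and S6, and it is the only library whose columns are missing from the deposited table that gives the shRNA of each count column of its line. Results that rest on S4 are given with and without it. S4 was set apart by its likeness to the controls in these same data, so leaving it out favours larger changes. The knockdown group is then S5 and S6 alone, and p-values without S4 only describe that fit. SOX9-AS1 did not set S4 apart, since all knockdown libraries of the line lay within 5.03 to 5.57 CPM.

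The label basal-like was checked against markers. The MDA-MB-468 controls held the basal keratin KRT5 at 1516 ± 91.9 CPM (SD, n = 3), EGFR at 6200 ± 232 CPM and the epithelial keratin KRT19 at 2102 ± 196 CPM. The HCC1187 controls held KRT5 at 0.0645 CPM and KRT19 at 0.0665 CPM, 2 counts each over 3 libraries, and KRT6A and KRT6B at 0. In each of these libraries 5 of the 10 basal-like markers were at 0, and the sum over those 10, 1419 to 1626 CPM, was mostly vimentin (VIM, 1418 ± 107 CPM). The epithelial genes EPCAM and CDH1 were at 4.97 ± 1.24 and 9.50 ± 0.725 CPM there, against 406 ± 26.1 and 153 ± 3.12 CPM in MDA-MB-468. The summed level of 5 epithelial markers was 288 to 300 CPM against 5175 to 5768 CPM. Of the marker lists for other cells, 6 fibroblast markers summed to 61.1 to 70.9 CPM against 12.9 to 16.1, and 5 leukocyte markers to 2.27 to 3.29 CPM against 0 to 0.412. The simple-epithelial keratins KRT8 and KRT18 were present in the HCC1187 controls at 184 ± 4.78 and 93.5 ± 2.11 CPM, against 1776 ± 92.4 and 975 ± 52.6 CPM. So in the libraries labelled HCC1187, KRT5, KRT6A, KRT6B and KRT19 were at or near 0 and the other epithelial markers were detected at lower levels than in MDA-MB-468. KRT5, KRT6A and KRT6B thus go against the basal-like label there, while VIM goes with it. The epithelial transcription factor gene GRHL2 had 0 counts in the HCC1187 controls, against 125 ± 5.44 CPM in the MDA-MB-468 controls. Whether these libraries come from the line named was not tested. HCC1187 below means the libraries so labelled.

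Promoter entries of RefSeq (GRCh38.p14) were found for 8 of the 9 factors, all but TFAP2C. The 250 bases before 3 annotated starts are shown for 3 different patterns. FOXC1 was the highest of the 9 per length in HCC1187. It also had the most negative log2 fold change of the 8 tested in MDA-MB-468, which did not pass with all libraries (adjusted p = 0.207 by edgeR). TFAP2A fell in HCC1187 and did not pass in MDA-MB-468, and EHF was the highest in MDA-MB-468 and near 0 in HCC1187. Counts are per gene, so which start was used is not known, and TFAP2A and EHF each have 2 entries. Capitals mark matches on either strand to 5 short words known for SOX, FOX, GATA, AP-2 and ETS factors, spelled out after the sequences. The FOXC1 window is chr6:1609665-1609914 on the plus strand, that of TFAP2A chr6:10419660-10419909 on the minus strand and that of EHF chr11:34624007-34624256 on the plus strand. None of the 3 windows overlaps an annotated exon of its gene.
FOXC1: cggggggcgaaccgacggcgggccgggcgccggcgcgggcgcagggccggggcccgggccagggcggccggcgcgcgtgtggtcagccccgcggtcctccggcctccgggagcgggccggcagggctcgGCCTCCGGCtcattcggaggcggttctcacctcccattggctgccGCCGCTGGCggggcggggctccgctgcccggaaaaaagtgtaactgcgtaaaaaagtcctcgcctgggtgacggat
TFAP2A: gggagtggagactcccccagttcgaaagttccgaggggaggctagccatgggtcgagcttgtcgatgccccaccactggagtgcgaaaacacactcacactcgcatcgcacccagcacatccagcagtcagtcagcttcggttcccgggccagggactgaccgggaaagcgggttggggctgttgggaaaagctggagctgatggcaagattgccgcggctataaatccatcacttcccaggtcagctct
EHF: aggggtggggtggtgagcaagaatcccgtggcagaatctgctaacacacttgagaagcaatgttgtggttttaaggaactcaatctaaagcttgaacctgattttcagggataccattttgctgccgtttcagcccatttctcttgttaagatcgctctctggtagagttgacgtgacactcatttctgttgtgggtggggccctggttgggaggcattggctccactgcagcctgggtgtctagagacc

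The FOXC1 window was 76.8% G or C and held 37 CpG dinucleotides, the TFAP2A window 59.6% and 13, and the EHF window 50% and 4. Over the 35116 promoter entries the medians were 58% and 11. The FOXC1 window held 2 AP-2 matches, 121 and 76 bases before the start, and no match to the other words. The TFAP2A and EHF windows shown held no match to any of the 5. The other entry of each gene did: that of TFAP2A (chr6:10412392-10412641) held 1 SOX and 3 ETS matches, and that of EHF (chr11:34632316-34632565) held 1 SOX, 1 FOX and 1 GATA match. Those 2 are not printed because they overlap annotated exons of their genes. The SOX word searched was ACAAT, which 24.6% of all entries of this length held. The FOX word was TGTTTAC, held by 2.98%, and the GATA word was AGATAA, held by 9.17%. The AP-2 word was GCCNNNGGC, held by 19.8%, and the ETS word was AGGAAG, held by 28.7%. Such matches are letters in a window and were not tested for binding.

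The control libraries gave the level of each factor in each line. Line, culture medium and count table go together, so they cannot be told apart wherever the lines are compared. Per length (RPKM, which is CPM per kilobase of gene length), MDA-MB-468 controls had EHF at 52.1 ± 5.80, TFAP2C at 35.9 ± 2.14, FOXC1 at 22.0 ± 3.20, FOXA1 at 15.7 ± 1.79, TFAP2A at 14.0 ± 1.27 and GATA3 at 12.7 ± 0.480 RPKM (SD, n = 3). FOXA1 and TFAP2A, and TFAP2A and GATA3, did not differ beyond their spread in this order. ESR1 (0.461 ± 0.0985), TP63 (0.221 ± 0.0187) and ELF5 (0.0356 ± 0.0434 RPKM) formed a low end. Of 19967 protein-coding genes, 95.8% stood below EHF and 29.3% below ELF5.

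In HCC1187 controls FOXC1 led at 45.8 ± 2.27 RPKM, above 96.7% of protein-coding genes. TFAP2A (10.5 ± 0.254), GATA3 (6.32 ± 0.456), TFAP2C (4.65 ± 0.391) and FOXA1 (3.37 ± 0.435 RPKM) followed, each apart from the next. ESR1, TP63, EHF and ELF5 had 5, 1, 1 and 0 counts over the 3 libraries. A count of 0 allows up to 3 counts over those libraries, and intervals given for counts cover counting error only.

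**Figure D1:**
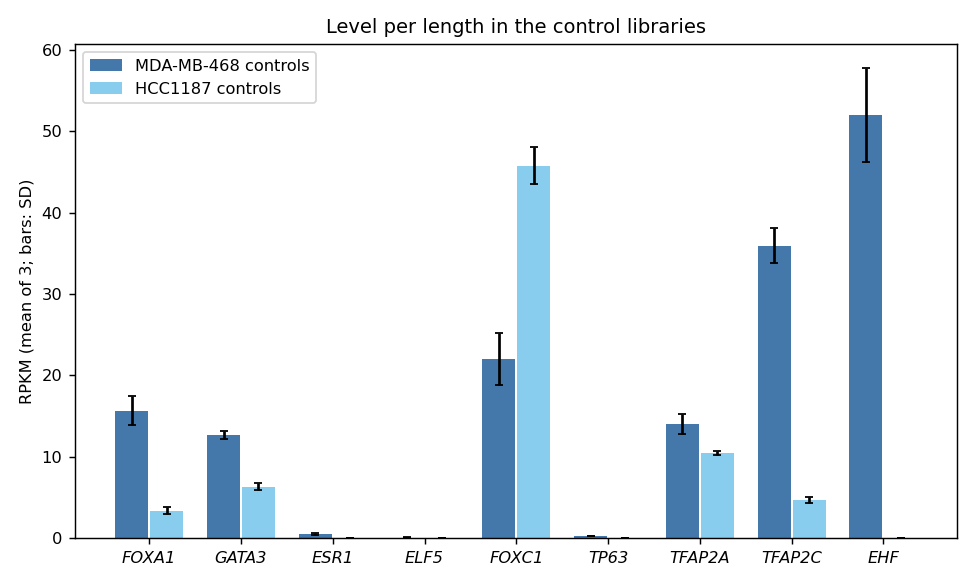
Mean RPKM of each factor in the 3 control libraries of each line, with bars of 1 SD and an axis from 0. FOXC1 is the one factor higher in HCC1187 (45.8 against 22.0 RPKM), and EHF, TFAP2C and FOXA1 are the clearest of those higher in MDA-MB-468.

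Of the 8 factors tested between the controls, 1 was higher and 7 were lower in HCC1187, where 84.1% of all tested genes differed (43.6% higher, 40.4% lower), so a difference here is what most genes show. ESR1, TP63 and EHF passed the filter on low counts only through MDA-MB-468 and so had to differ. The basal marker FOXC1 was higher in HCC1187 (log2 difference 1.07 ± 0.09, SE, adjusted p = 4.81e-10), all 3 of its controls (173 to 191 CPM) lying above those of MDA-MB-468 (72.8 to 95.2 CPM). The luminal factors FOXA1 and GATA3 were 4.62-fold and 1.99-fold lower there (adjusted p = 1.16e-13 and 1.22e-08). TFAP2C was 7.66-fold lower (adjusted p = 6.24e-17), while its paralog TFAP2A differed by -0.41 (adjusted p = 0.000104), a call that ended when plain library totals were used (-0.17, adjusted p = 0.0539). Library totals moved the median of all genes in this comparison by 0.233 on the log2 scale.

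For the 4 factors with few counts, ratios were taken on the counts. EHF had 5496 counts in the MDA-MB-468 controls and 1 in the HCC1187 controls, a ratio of 6712 after scaling (95% interval 1204 to 2.65e+05). ESR1 had 155 against 5, a ratio of 37.9 (15.9 to 118). TP63 had 40 against 1, a ratio of 48.9 (8.28 to 1977). ELF5 had 4 against 0, and no fold is given. ESR1 overlaps SYNE1 on the opposite strand over 7936 bases, and the sources used here do not say whether counting used the strand. SYNE1 stood at 21.1 CPM in HCC1187 controls and 0.243 CPM in MDA-MB-468 controls, the reverse of ESR1.

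In HCC1187, 3 of the 5 factors that could be tested fell under the knockdown, FOXC1, TFAP2A and FOXA1, and GATA3 and TFAP2C did not pass. Of all 14970 genes tested there, 22.8% passed, 9.78% rising and 13.1% falling. FOXC1 stood at 173, 183 and 191 CPM in the controls and at 142, 141 and 129 CPM in the knockdown. Every knockdown library was below every control library. The share of all genes with groups apart like this was not counted in either line, so such separation only describes the levels. The log2 fold change was -0.42 ± 0.08 (SE, adjusted p = 0.000929), a 1.34-fold fall, and the call was lost when all 12 libraries shared 1 fit (adjusted p = 0.361). TFAP2A, which activates epithelial and neural crest genes, stood at 85.0, 84.8 and 88.5 CPM in the controls and at 65.6, 69.0 and 68.7 CPM in the knockdown. These groups did not overlap either, and TFAP2A fell by 0.35 on the log2 scale (SE 0.0868, adjusted p = 0.00495).

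FOXA1 stood lower in this line, with 13.7, 17.1 and 13.7 CPM in the controls and 9.89, 13.0 and 10.7 CPM in the knockdown. The groups were apart by less than 1 CPM, and the log2 fold change of -0.42 ± 0.15 was just past the threshold (adjusted p = 0.0485). The call was lost without S7 (0.0551), S8 (0.243), S9 (0.0602), S10 (0.107) or S12 (0.149), by DESeq2 (0.0979) and with plain library totals (0.0854). Its opposite-strand partner TTC6, which shares 213 bases with it, stood at 2.01 ± 0.232 CPM in controls and 1.39 ± 0.125 CPM in the knockdown.

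GATA3 stood at 21.5, 19.9 and 23.0 CPM in the controls and at 25.9, 21.2 and 23.5 CPM in the knockdown. These groups overlapped, and the log2 difference of 0.12 had a 95% interval of -0.11 to 0.36 (adjusted p = 0.498). TFAP2C stood at 13.1, 13.5 and 15.3 CPM against 11.1, 13.0 and 13.8 CPM. The groups overlapped again, with a log2 difference of -0.14 and an interval of -0.42 to 0.14 (adjusted p = 0.501). ESR1 had 2 counts, TP63 2, ELF5 1 and EHF 0 over the knockdown libraries, so a change in these 4 was not detectable at the depth of the 1 lane used per library.

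Markers of the label moved in the same HCC1187 libraries. The sum over the 10 basal-like markers was 1419 to 1626 CPM in the controls and 1155 to 1283 CPM in the knockdown, with 4 to 6 of them at 0 in any library, and CDH3 (log2 -0.54, adjusted p = 0.00721) and VIM (-0.31, 0.013) fell, 2 of 4 tested. The sum over the 5 epithelial markers was 288 to 300 CPM and 235 to 252 CPM, with 0 or 1 at 0, and KRT18 (log2 -0.42, adjusted p = 0.00148) and KRT8 (-0.24, 0.0391) fell, 2 of 4 tested, where 22.8% of all genes passed. EPCAM (0.34, adjusted p = 0.265) and CDH1 (0.09, 0.711) had changes above 0 and did not pass. KRT8 and KRT18 made most of this sum, so its shift is mainly theirs. Neither sum overlapped between the groups, and how often sums over other genes lie apart was not counted. Fibroblast markers summed to 61.1 to 70.9 and 65.9 to 80.6 CPM, with 1 or 2 of 6 at 0. The part of these shifts in the changes of the factors was not tested.

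**Figure D2:**
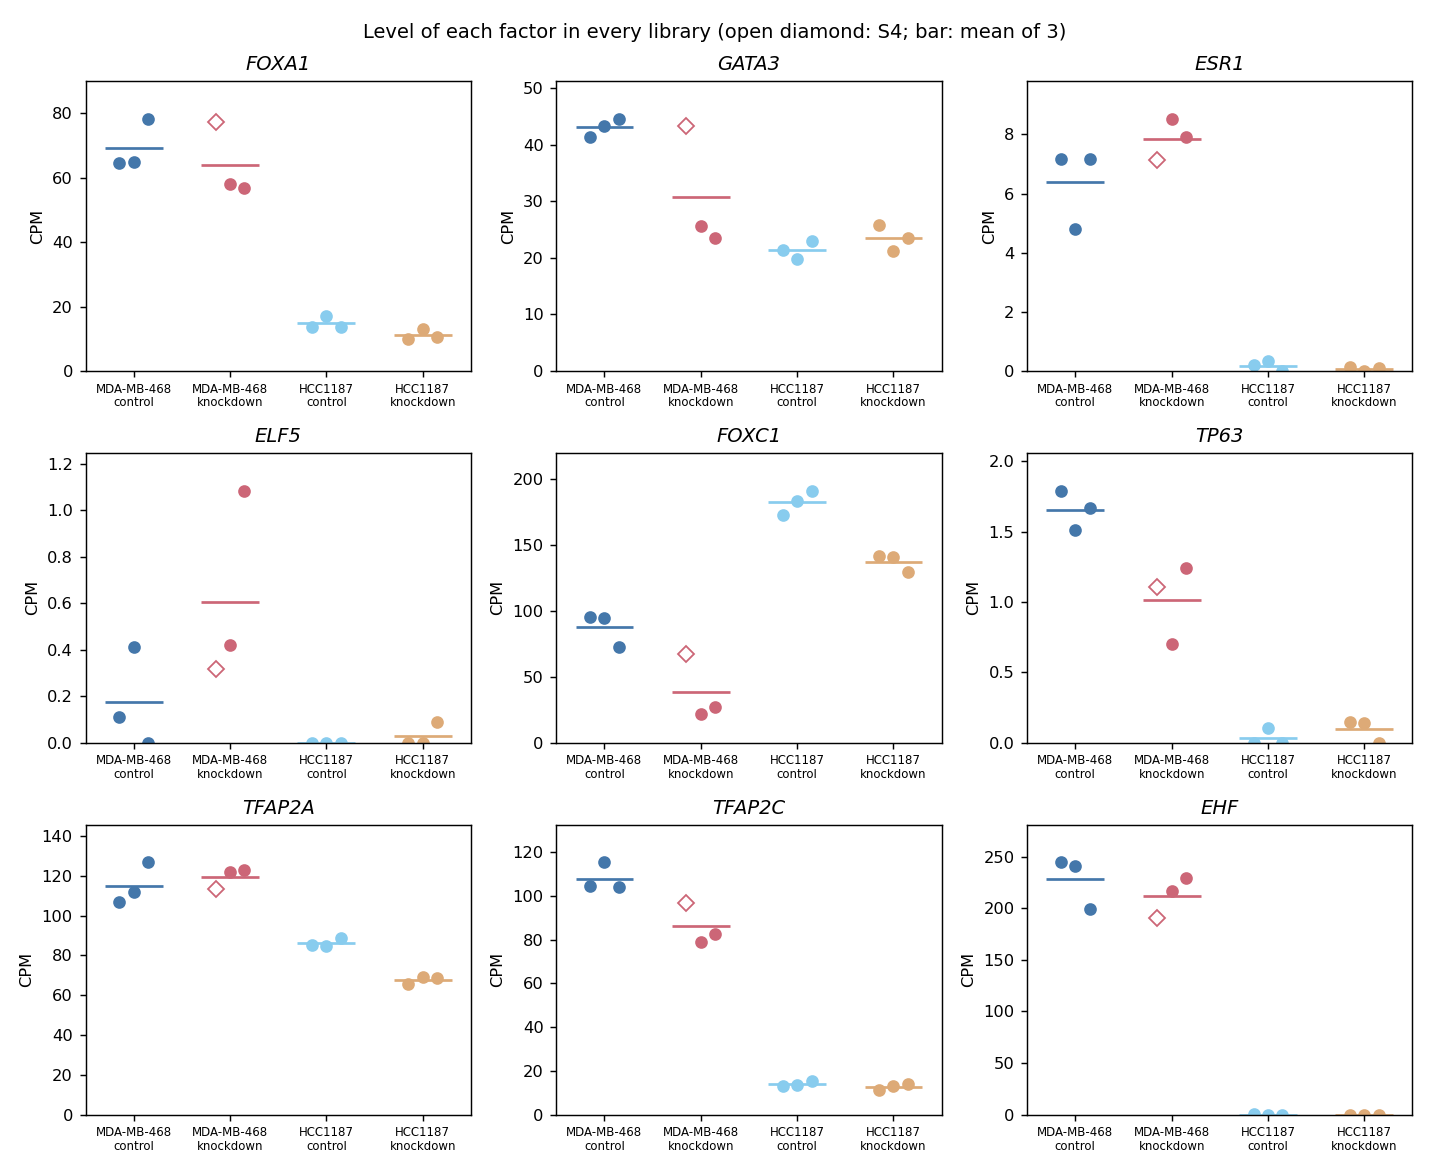
CPM of each factor in every library, by group, on linear axes from 0; points are libraries, lines are means of 3 and the open diamond is S4. FOXC1 and TFAP2A are lower in all 3 HCC1187 knockdown libraries, and S4 sits near the MDA-MB-468 controls for GATA3 and FOXA1.

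In MDA-MB-468 none of the 8 factors tested passed when all 6 libraries were used, where 1 of 13638 genes passed (0.00733%) and 2554 had an unadjusted p under 0.05 in the edgeR test. Of the 8, FOXC1 and TFAP2C had an unadjusted p under 0.05, while limma-voom called 0 and DESeq2 1. Without S4, FOXC1, GATA3 and TFAP2C fell, in a fit where 40.7% of 13947 genes passed (20.0% rising, 20.7% falling). The controls held FOXC1 at 95.2, 94.6 and 72.8 CPM, and the knockdown held it at 67.4 CPM in S4 and at 21.7 and 27.4 CPM in S5 and S6. All 3 knockdown libraries were below the controls, S4 at 77% of the control mean and S5 and S6 at 24.7% and 31.3%. The log2 fold change was -1.17 ± 0.37 (SE) with all libraries (adjusted p = 0.207) and -1.85 ± 0.14 without S4 (adjusted p = 1.63e-07). With all 6 libraries the call was made by DESeq2 (adjusted p = 0.0453), without a filter on low counts (5.1e-09) and when all 12 libraries shared 1 fit (0.0316).

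GATA3 stood at 41.4, 43.4 and 44.6 CPM in the controls, at 43.4 CPM in S4 and at 25.7 and 23.5 CPM in S5 and S6. S4 lay within the controls and the other knockdown libraries far below them. The log2 fold change was -0.48 ± 0.22 with S4 (adjusted p = 0.28) and -0.81 ± 0.12 without it (adjusted p = 7.18e-05). TFAP2C stood at 104, 115 and 104 CPM in the controls, 96.5 CPM in S4, and 79.1 and 82.4 CPM in S5 and S6. All 3 knockdown libraries were lower than the controls, with a log2 fold change of -0.33 ± 0.12 (adjusted p = 0.213), or -0.42 ± 0.09 without S4 (adjusted p = 0.00205).

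FOXA1 stood at 64.4, 64.7 and 78.2 CPM in the controls, 77.2 CPM in S4, and 58.0 and 56.7 CPM in S5 and S6, and passed neither with S4 (-0.11, adjusted p = 0.697) nor without it (-0.27, adjusted p = 0.0561). TFAP2A stood at 107, 112 and 127 CPM in the controls and at 113, 122 and 123 CPM in the knockdown. These groups overlapped, and its log2 difference of 0.05 had a 95% interval of -0.16 to 0.26 (adjusted p = 0.799). EHF stood at 245, 241 and 199 CPM against 191, 217 and 230 CPM, with a difference of -0.10 and an interval of -0.34 to 0.13 (adjusted p = 0.635). The highest factor of this line thus showed overlapping groups.

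The 3 low factors of MDA-MB-468 rested on few counts. ESR1 stood at 7.16, 4.81 and 7.18 CPM in the controls and at 7.12, 8.52 and 7.90 CPM in the knockdown, a log2 difference of 0.29 ± 0.22 (adjusted p = 0.468). TP63 had 16, 11 and 13 counts in the controls and 7, 5 and 8 in the knockdown. Its groups did not overlap in CPM (1.51 to 1.79 against 0.699 to 1.24), but the log2 difference of -0.71 ± 0.36 did not pass (adjusted p = 0.306). ELF5 had 1, 3 and 0 counts in the controls and 2, 3 and 7 in the knockdown, below the filter. ELF5 and EHF are neighbours on chromosome 11, with 107287 bases and no protein-coding gene between them, and in this line one was near 0 while the other was the highest of the 9.

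Markers of the basal-like label also differed between S4 and the other knockdown libraries of MDA-MB-468. KRT5 stood at 1599, 1531 and 1417 CPM in the controls, 1450 CPM in S4, and 757 and 741 CPM in S5 and S6. KRT17 stood at 633 CPM in S4 against 124 and 101 CPM in S5 and S6. With all 6 libraries 0 of 9 tested markers of the label passed (KRT5 had an adjusted p of 0.234 and VIM one of 0.205). Without S4, where 40.7% of all genes passed, 5 of the 9 fell and 2 rose, VIM among the latter. The sum over the 10 markers was 8846 to 8996 CPM in the controls and 6893 to 9070 CPM in the knockdown, and 0 or 1 of them were at 0 in any library. Fibroblast markers summed to 12.9 to 16.1 and 14.6 to 21.1 CPM, with 3 or 4 of 6 at 0. The part of these shifts in the changes of the factors was not tested.

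**Figure D3:**
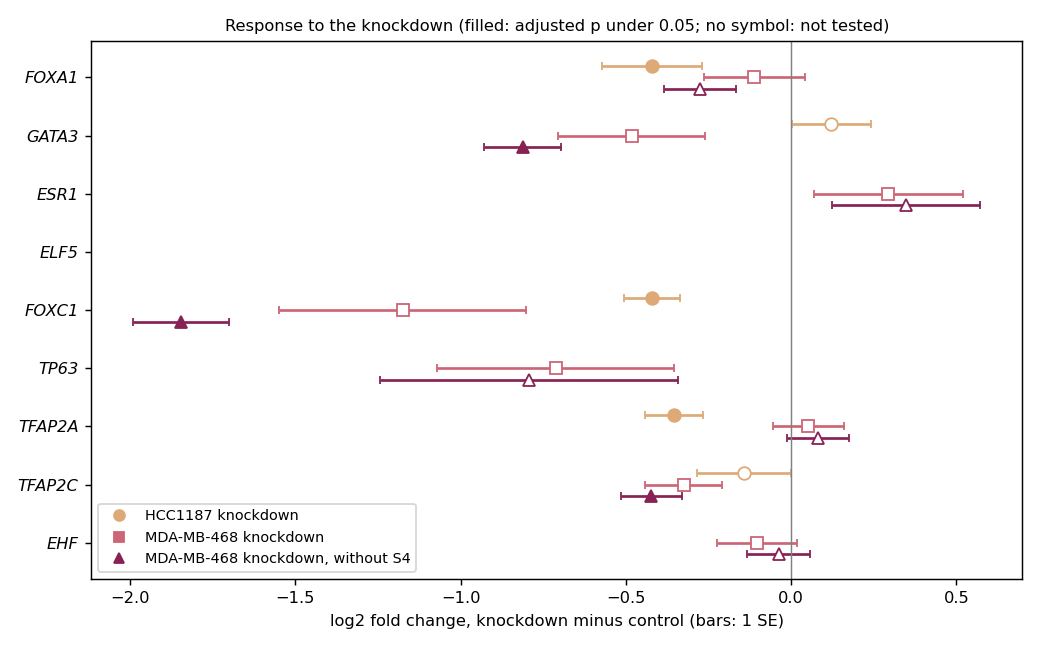
Log2 fold change of each factor under the knockdown with bars of 1 SE, for HCC1187 (circles), MDA-MB-468 with all 6 libraries (squares) and without S4 (triangles); filled symbols passed at an adjusted p under 0.05. FOXC1 lies left of 0 in all 3 comparisons, at -0.42, -1.17 and -1.85.

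Whether the response differed between the lines was tested as an interaction, HCC1187 effect minus MDA-MB-468 effect. With all 12 libraries none of the 8 factors tested passed, where 3.75% of 16328 genes did and 3367 had an unadjusted p under 0.05 by edgeR, GATA3 and TFAP2A among them; limma-voom called 0 of the 8. Values were 0.77 ± 0.38 for FOXC1 (SE, adjusted p = 0.263), 0.62 ± 0.26 for GATA3 (0.184) and -0.40 ± 0.13 for TFAP2A (0.0961). By DESeq2 TFAP2A passed (-0.41, adjusted p = 0.0394), and with no filter FOXC1 did (0.71, adjusted p = 0.00374). Without S4, where 25.6% of genes passed, FOXC1 (1.43 ± 0.16, adjusted p = 2.36e-07), GATA3 (0.94 ± 0.17, 0.000182) and TFAP2A (-0.43 ± 0.12, 0.011) differed. In that fit FOXC1 and GATA3 had the more negative response in MDA-MB-468 and TFAP2A in HCC1187. For FOXA1 and TFAP2C the intervals without S4 were -0.51 to 0.22 and -0.04 to 0.60. Differences for ESR1, TP63 and EHF rest on HCC1187 counts near 0 and are not read.

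Genes that the factors are known to control were taken from lists. In the HCC1187 controls ESR1 had 5 counts and TP63 1. Whether a factor drove any change in its list was not tested in either line. Of 24 luminal genes, 15 were tested in HCC1187: 1 rose and 4 fell, where 9.78% of all genes rose and 13.1% fell. The median log2 fold change was -0.07 beside 0.01 over all genes. The estrogen-responsive zinc transporter SLC39A6 (-0.55, adjusted p = 0.00012), the secreted STC2 (-0.53, 0.000321), the unfolded-protein-response factor XBP1 (-0.46, 0.000986) and the survival gene BCL2 (-0.48, 0.00943) fell there. In MDA-MB-468, 0 of 16 passed edgeR's test with all libraries (5 had an unadjusted p under 0.05). Without S4, where 20.0% of all genes rose and 20.7% fell, 8 rose and 4 fell with a median of 0.11 beside 0.00 over all genes, XBP1 (0.56, adjusted p = 5.95e-05) and the secretory gene AGR2 (1.25, 9.1e-05) rising and the cyclin CCND1 (-1.20, 7.97e-08) falling.

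Of 24 basal and p63 target genes, 13 were tested in HCC1187, where 0 rose and 4 fell (median -0.49; 13.1% of all genes fell): the desmosomal PERP (-0.68, adjusted p = 4.46e-05), the Notch ligand JAG1 (-0.72, 6.93e-05), the integrin ITGA6 (-0.58, 0.000317) and the P-cadherin gene CDH3 (-0.54, 0.00721). The summed level of this list was 707 to 730 CPM in those controls against 3983 to 4490 CPM in MDA-MB-468 controls. In MDA-MB-468, 0 of 21 passed with all libraries (7 at an unadjusted p under 0.05), and without S4, 4 rose and 10 fell (median -0.40; 20.7% of all genes fell). The keratin KRT17 fell (-2.46, adjusted p = 2.65e-10), as did the laminin chain LAMB3 (-2.52, 3.58e-09) and KRT5 (-1.02, 1.79e-07), while FGFBP1 rose (2.61, 5.84e-10). Of alveolar luminal progenitor genes, 0 of 4 tested passed in HCC1187 (1 at an unadjusted p under 0.05), where 22.8% of all genes passed. In MDA-MB-468, 0 of 10 passed with all libraries (2 unadjusted). Without S4, 3 rose and 3 fell of 11, near the 20.0% and 20.7% over all genes. In that fit the receptor kinase KIT fell (-1.80, adjusted p = 0.000666) and the prolactin receptor PRLR rose (1.02, 5.44e-06).

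Of 30 other lineage transcription factors, 24 were tested in HCC1187, where 0 rose and 8 fell (median -0.18), beside 9.78% rising and 13.1% falling over all genes. ID4, a dominant-negative helix-loop-helix protein of mammary basal cells, stood at 103 ± 5.38 CPM in controls and 45.9 ± 3.28 CPM in the knockdown (SD, n = 3; log2 -1.17, adjusted p = 1.22e-08). KLF4 (-1.01, 1.55e-05), GRHL1 (-0.60, 0.00172), RUNX1 (-0.61, 0.00338) and KLF5 (-0.49, 0.0043) fell with it. In MDA-MB-468, 0 of 27 passed with all libraries (10 unadjusted), ID4 having -0.82 (adjusted p = 0.205) and GRHL1 0.44 (0.211). Without S4, 9 rose and 9 fell (20.0% and 20.7% over all genes), TFCP2L1 (-2.11, 6.99e-07), RUNX1 (-1.18, 1.83e-06) and KLF5 (-0.96, 1.08e-05) among the latter. In the edgeR interaction with all 12 libraries 1 of 29 tested passed, GRHL1 (-1.03, adjusted p = 0.0147), where 3.75% of all genes did. Without S4, 6 of 29 passed with a positive and 4 with a negative difference, where 25.6% of all genes passed. Among these were TFCP2L1 (2.17, adjusted p = 5.35e-08) and GRHL1 (-1.17, 5.44e-06). Of 17 AP-2 cofactors and targets, all tested in HCC1187, 2 rose and 5 fell (9.78% and 13.1% over all genes), the cofactor CITED2 (-0.79, adjusted p = 5.36e-05) and the receptor ERBB3 (-0.49, 0.00117) among those that fell. KRT18 and KRT8, counted above as epithelial markers, were also among these falls. Lists share genes, CDH3 and ELF3 being others, so counts of different lists are not separate results. In MDA-MB-468 without S4, ERBB3 (0.52, 0.000401) and ERBB2 (0.57, 0.000299) were among 5 of 15 that rose and 3 fell (20.0% and 20.7% over all genes), and with all libraries 0 of 15 passed (2 unadjusted).

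**Figure D4:**
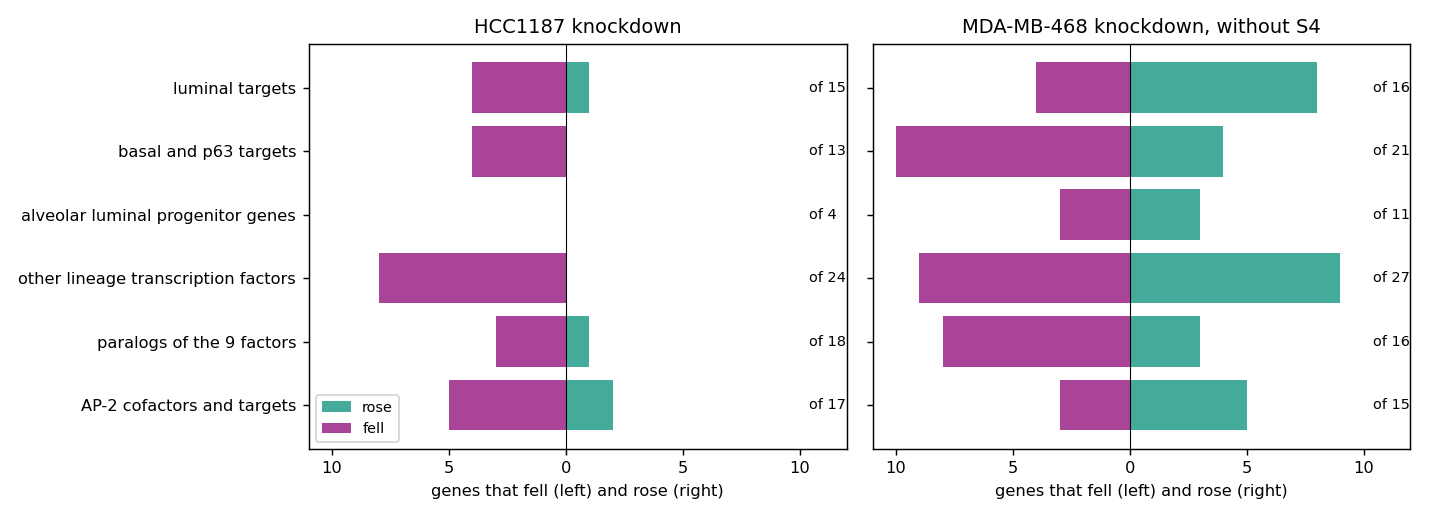
Number of genes of each list that passed the test, falling to the left and rising to the right, with the number tested beside each bar, for HCC1187 and for MDA-MB-468 without S4. Other lineage factors show 0 rises and 8 falls of 24 tested in HCC1187 (9.78% and 13.1% over all genes). In MDA-MB-468 without S4 they show 9 of each of 27 tested (20.0% and 20.7% over all genes). With all 6 libraries of that line, which are not drawn, 0 of 27 passed.

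Of 25 close relatives of the 9, 20 were tested between controls, 11 higher and 9 lower in HCC1187, where 84.1% of all genes differed. FOXF2, ELF3 and SPDEF, described next, passed the filter on low counts only through the line where they are high and so had to differ. The GATA factor GATA2 stood at 75.2 ± 6.28 CPM there against 3.38 ± 1.52 CPM in MDA-MB-468 controls, the reverse of GATA3. FOXF2, a forkhead gene near FOXC1, stood at 48.1 ± 4.91 against 0.249 ± 0.126 CPM. The ETS factors ELF3 and SPDEF stood at 0.556 and 0.0684 CPM in HCC1187 against 287 ± 19.9 and 167 ± 14.6 CPM, like EHF. Under the knockdown, 1 of 18 tested paralogs rose and 3 fell in HCC1187 (22.8% of all genes passed), FOXO1 most (-0.62, adjusted p = 0.0051). In MDA-MB-468, 0 of 16 passed with all libraries (4 unadjusted), and 3 rose and 8 fell without S4 (40.7% of all genes passed), the forkhead gene FOXQ1 among them (-3.00, adjusted p = 1.13e-06).

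Other genes that overlap the factors on the opposite strand, named for their position, were low. GATA3-AS1 had 2 to 5 counts per group and TFAP2A-AS1 1.32 to 2.31 CPM in group means, against 67.8 to 119 CPM for TFAP2A. Over the 12 libraries and 13603 genes, the genes whose centred log2 CPM lay closest to each factor (root mean square difference) were HEG1 (0.199) and CDK6 (0.207) for FOXC1, and NOC2L (0.055) and CLUH (0.0902) for GATA3. For FOXA1 they were ZNF532 (0.131) and FLNA (0.153), for TFAP2A RAB15 (0.0731) and ZMYM4 (0.0763), for TFAP2C SRD5A1 (0.118) and TNS3 (0.133), and for EHF VTCN1 (0.185) and MAGEA6 (0.187). This likeness is mostly that of the lines, since it spans both.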

How the data were processed

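Gene counts of RNA-seq libraries were used as the authors deposited them, 1 column per library and lane. Per the submitters' processing notes, HISAT2 2.1.0 and featureCounts 2.0.0 were among the tools and GRCh38 was the build; strand setting and annotation release: not given in the sources used here. Each group has more count columns than labelled samples, and no column can be matched to a single sample. Lane 1 of each of the 12 libraries was used, which gave as many columns as samples. The other 24 count columns, further lanes of the same libraries, were not used, so the depth is that of 1 of 3 lanes. The library number in the column names would allow the lanes to be summed, which was not done. All counts and totals are those of that lane, and the numbers S1 to S12 come from the column names. BLANCO in the names of the knockdown columns is not explained by any source at hand.

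CPM used library totals scaled by TMM over the 12 libraries, and RPKM is CPM per kilobase of the length in the deposited tables. The main test was edgeR 4.0.16 quasi-likelihood (R 4.3.3), run per line on TMM-scaled genes kept by filterByExpr, whose minimum count was 10 and minimum total 15. The control comparison used the control libraries and the interaction all 12. P-values were Benjamini-Hochberg adjusted over all genes tested, with a threshold of 0.05, and standard errors come from the fold change and the F statistic. Alternatives were DESeq2 1.42.0, limma-voom (limma 3.58.1), RLE scaling, library totals, 2 other filters, 1 joint fit and leaving out each library. The script was tested on simulated data. Loci come from GENCODE v29 (GRCh38). Besides the 9 factors, SOX9-AS1 and SOX9, up to 5 genes of a list were named per comparison, those with the smallest p, and genes of a list named for their levels were taken from the same lists. The factors, lists and tests were chosen with earlier results of these data known.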

Additional observations from a re-analysis of the deposited data

Results flagged for a closer look

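The response to the knockdown differed between the lines for 3 of 8 factors tested once S4 was left out, by the interaction test of edgeR. In that fit 25.6% of all genes tested passed. The values, HCC1187 effect minus MDA-MB-468 effect on the log2 scale, were 1.43 for FOXC1, 0.94 for GATA3 and -0.43 for TFAP2A. With all 12 libraries none of them passed. S4 was left out for its likeness to the controls in these same data, so the fit without it is no independent test of a difference.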

How the results depend on the processing

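No paired analysis was possible because the count columns carry no replicate number. Lane sums and the other lanes were not run. In HCC1187, 3 factors passed, 1 when all 12 libraries shared a fit (FOXC1 then had an adjusted p of 0.361 and FOXA1 0.147), and 2 to 3 when a library was left out. In MDA-MB-468, 0 passed, 1 with no filter, by DESeq2 or in the joint fit, and 0 to 3 when a library was left out, the 3 without S4. For the difference between the lines 0 passed, 1 with no filter or by DESeq2, and 0 to 3 without a library, the 3 again without S4. Between the controls 8 passed in each fit that left out a library. Over all genes, the fits reported had 22.8% passing in HCC1187, 0.00733% in MDA-MB-468, 3.75% for the difference and 84.1% between the controls. Without S4 the shares were 40.7% in MDA-MB-468 and 25.6% for the difference. Signs turned for TFAP2A in MDA-MB-468 without S1 (-0.0083; range without a library -0.0083 to 0.12) and for the EHF difference without S7 (0.10; range -2.002 to 0.10), which rests on 1 count. The cause of these moves was not tested.

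With plain library totals 57.7% of the genes called in HCC1187 rose, against 42.8% in the fit reported. Genes called in MDA-MB-468 numbered 1 in that fit, 0 by limma-voom, 282 by DESeq2, 887 in the joint fit, 1441 with no filter and 5676 without S4. In HCC1187 they numbered 3418, and 1499 in the joint fit. For the difference they numbered 613, 1036 by DESeq2, 1415 with no filter, 4300 without S4 and as few as 129 without S2. TP63, ESR1 and ELF5 are limited by the depth of the 1 lane used.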
